A study of Mus musculus with 12 samples.

Results

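The effect of dietary fat on the ileal transcriptome was measured by setting all mice on a high-fat diet against all mice on a normal-fat diet, whichever drink they had been given. The high-fat side held 6 RNA-seq libraries, 3 from mice with plain water (HF) and 3 from mice with a sugar drink (HF_Sugar), and the normal-fat side held the other 6, 3 from mice with plain water (NF) and 3 from mice with a sugar drink (NF_Sugar). These are all 12 libraries of the series, and drink was kept in the model so that the fat difference was averaged over both drinks. Of 44205 genes in the deposited table, 17662 reached the level needed for testing, and all of these were tested. The mice were C57BL/6 with no altered allele, aged 16 weeks, and had been fed for 10 weeks from the age of 6 weeks. The high-fat diet drew 60% of its energy from fat, the label of the normal-fat diet gives no percentage, and the sugar drink was 23% (w/v). A diet with more of its energy from fat has less from other nutrients, so fat and what it replaced cannot be told apart here. Each library came from the ileum of 1 mouse and holds the RNA of all cell layers of the piece taken, so fewer cells of a type and less RNA per cell cannot be told apart. No label gives cage or litter.

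The ileum is the last segment of the small intestine. Its enterocytes take up bile acids through Slc10a2 and Fabp6, and whatever fatty acids the upper intestine leaves, which are rebuilt into triglycerides and shipped out in chylomicrons. Fatty acids are ligands of the nuclear receptor PPAR-alpha, which switches on genes of mitochondrial and peroxisomal fat oxidation, and the ileal wall also holds Peyer's patches, the B cell follicles of the gut. The tissue label fitted its markers: the bile acid binding protein gene Fabp6 was present at 2415, 5641 and 9226 RPKM in high-fat libraries, against 2557, 3104 and 9713 RPKM in normal-fat libraries (lowest, median and highest of 6), the order in which values are given throughout. The bile acid transporter gene Slc10a2 was present at 64.4, 83.6 and 123 RPKM in high-fat libraries, against 77.7, 91.4 and 122 RPKM in normal-fat libraries. RPKM are reads scaled to gene length (in kilobases) and to the mapped reads of the library (in M). Vil1, which encodes the brush border protein villin, stood at 453, 494 and 552 RPKM in high-fat libraries, against 328, 515 and 546 RPKM in normal-fat libraries. Y-linked Ddx3y lay between 2.06 and 3.31 RPKM and Xist at or under 0.0510 RPKM in all 12 libraries.

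By the steps between low RPKM values, sequencing depth was 15.3 to 39.0 M reads a library, with 11.9 to 30.3 M within genes. In 4 libraries, 1 from each group (HF replicate 2, HF_Sugar replicate 2, NF replicate 2 and NF_Sugar replicate 1), genes took 73.3% to 73.8% of all reads, and in the other 8 they took 77.0% to 81.4%. These 4 libraries are called low-share libraries below, and the other 8 high-share libraries. They stood apart on the first principal component. Diet took 5.59% of the total sum of squares over genes, drink 7.90%, and low against high share 34.04%. Since each group holds 1 low-share and 2 high-share libraries, this difference is balanced over the diets. Of the 103 genes described, 21 had fat differences of opposite sign in the 2 kinds of library, and the values within each kind are given for many genes, with no test of their difference.

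**Figure D1:**
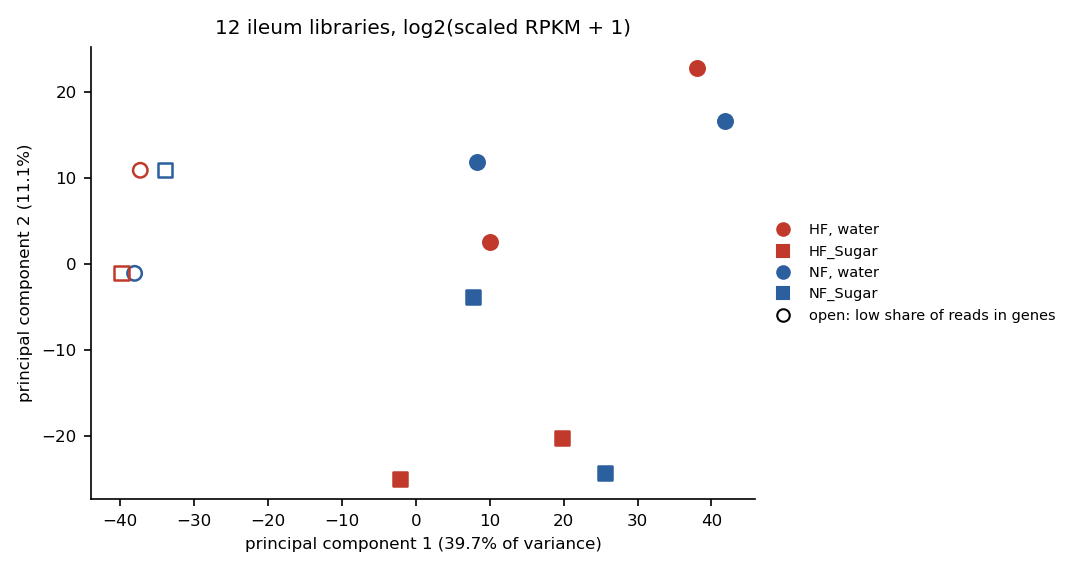
Position of the 12 ileum libraries on the first (horizontal, 39.7% of the variance) and second (vertical, 11.1%) principal component of log2(scaled RPKM + 1), with 1 point per library, red for high fat, blue for normal fat, circles for plain water, squares for the sugar drink and open symbols for the low-share libraries. The 4 open symbols lie together at the left, and red and blue points are mixed along both axes.

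No gene passed the test for fat. Over 17662 genes, limma with Benjamini-Hochberg adjustment called 0 genes higher (0%) and 0 genes lower (0%) in high-fat than in normal-fat libraries at an adjusted p under 0.05, and the smallest adjusted p was 0.9995. At an unadjusted p under 0.05 there were 475 genes, fewer than the 883.1 that uniform p-values would give, of which 341 (1.93%) were higher and 134 (0.759%) lower in high-fat libraries. The smallest unadjusted p was 0.00110. In deposited RPKM, all 6 high-fat values lay above all 6 normal-fat values in 22 genes (0.125%) and below them in 2 genes (0.0113%). In scaled values these counts were 12 and 3. Where groups are said below to overlap or not, deposited RPKM are meant. Limma-voom on recovered reads also called 0 genes, with 459 genes at an unadjusted p under 0.05. The count of 475 became 888 without NF_Sugar replicate 1 and 771 without HF_Sugar replicate 2. Of the genes higher at that level, 198 were counted without NF replicate 1 and 621 without NF_Sugar replicate 1. Of those lower, 264 were counted without NF replicate 3, 267 without NF_Sugar replicate 1, 203 without HF replicate 1 and 338 without HF_Sugar replicate 2. With the 4 low-share libraries left out, 1200 genes (637 higher and 563 lower) lay under an unadjusted p of 0.05, and still 0 passed the adjusted test.

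The spread between libraries, each of 1 mouse, sets what these 12 libraries could have shown, and it includes the split between low and high share. The median standard error of a log2 difference was 0.13, and the median 95% interval reached 0.28 to either side of the estimate. For 16647 genes (94.3%) the interval lay wholly within log2 1 of 0, that is within a 2-fold change of scaled RPKM + 1 in either direction. Differences are given on the scale log2(scaled RPKM + 1), high-fat minus normal-fat. A fold given beside a difference is a fold of scaled RPKM + 1 and not of RPKM. Both understate the change in RPKM, most of all for genes near or below 1 RPKM. Over all genes tested the median difference was 0.0057, and 9151 genes (51.8%) had a positive one. Only 34 genes had a difference of log2 1 or more in size, and 25 of these were immunoglobulin segments, 14 higher and 11 lower in high-fat libraries. The 227 variable segments tested had a median difference of 0.025 and a median standard error of 0.52, and 115 of them were positive. Of the 9 other genes with such a difference, 8 were lower in high-fat libraries.

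The fat differences seen with each drink showed little in common. With plain water (HF against NF), 386 genes were higher and 226 lower at an unadjusted p under 0.05, 0 passed limma's adjusted test, and the smallest adjusted p was 0.768. With the sugar drink (HF_Sugar against NF_Sugar), 194 were higher and 94 lower at that level, and 1 gene (0.00566%), Il1b, passed. Across the 17662 genes, which are not independent replicates, the difference with sugar and that with water had a Pearson correlation of 0.018, and 50.3% of genes had the same sign with both.

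**Figure D2:**
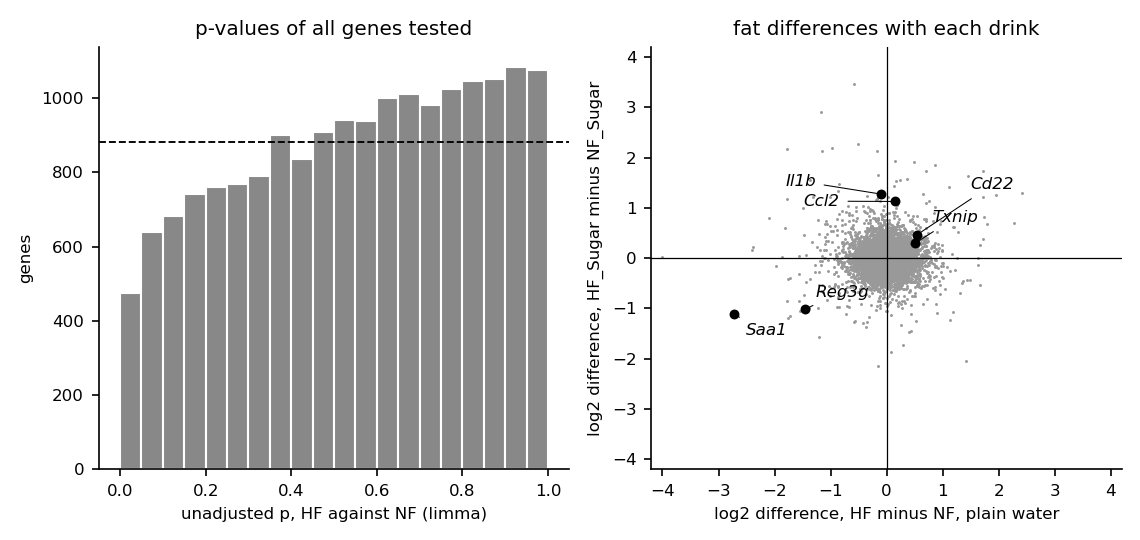
Left, the number of genes in each bin of the unadjusted limma p for high fat against normal fat, with a dashed line at the height of uniform p-values; the bins rise to the right, and the lowest bin holds 475 genes against 883.1. Right, 1 point per gene. The horizontal axis gives the log2 difference between HF and NF (plain water), and the vertical axis that between HF_Sugar and NF_Sugar. The cloud is round, and Il1b, with values in HF_Sugar that are called irregular below, stands apart with sugar alone. Ccl2 also lies high with sugar, but it reached the level needed for testing in HF_Sugar libraries alone, so no direction is read from it.

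No gene of fat handling passed the adjusted test. Of 43 tested PPAR-alpha targets and fatty acid oxidation genes, 18 had a positive difference, 0 reached an unadjusted p under 0.05 in either direction, and the median difference was -0.021 against 0.0057 over all genes. Cpt1a, which encodes the enzyme that loads long fatty acids for entry into mitochondria, had 31.8, 33.5 and 38.9 RPKM in high-fat libraries, against 26.5, 31.5 and 41.0 RPKM in normal-fat libraries. All 6 high-fat libraries lay inside the normal-fat range, the difference was 0.076 ± 0.11 (SE), and its 95% interval ran from -0.16 to 0.31. Pdk4, a kinase that turns pyruvate away from oxidation, had 0.945, 2.45 and 5.94 RPKM in high-fat libraries, against 1.47, 4.53 and 7.22 RPKM in normal-fat libraries, and its difference was -0.98 in high-share and 0.76 in low-share libraries. Angptl4, a lipoprotein lipase inhibitor induced by fatty acids, had 3.23, 17.6 and 30.8 RPKM in high-fat libraries, against 13.1, 23.1 and 48.4 RPKM in normal-fat libraries, and its difference was -1.13 in high-share and 0.57 in low-share libraries.

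Of the members of that list with the smallest p, Pex11a and Acot2 had negative differences. Pex11a, a peroxisome division gene, had 9.33, 10.99 and 15.4 RPKM in high-fat libraries, against 11.3, 13.7 and 19.3 RPKM in normal-fat libraries, a difference of -0.29 ± 0.17 (unadjusted limma p = 0.110, exact permutation p = 0.125). Acot2, a mitochondrial acyl-CoA thioesterase, had 3.44, 4.18 and 6.74 RPKM in high-fat libraries, against 3.50, 5.80 and 8.996 RPKM in normal-fat libraries, a difference of -0.28 ± 0.21 (unadjusted limma p = 0.217, exact permutation p = 0.31) that was -0.53 in high-share and 0.23 in low-share libraries. Of 25 genes of fatty acid uptake and triglyceride synthesis, 7 were positive with a median of -0.037, and of 17 apolipoprotein and chylomicron genes 5 were positive with a median of -0.057. The scavenger receptor gene Cd36, which mediates fatty acid uptake, had 1.05, 1.51 and 1.93 RPKM in high-fat libraries, against 0.790, 1.35 and 2.77 RPKM in normal-fat libraries. Its difference was -0.029 ± 0.17 with an interval of -0.40 to 0.34, and its sign turned under limma-voom. Within the kinds of library it was -0.24 in high-share and 0.39 in low-share libraries. The 4 lists of oxidation, uptake, chylomicron assembly and lipogenesis together had 1 member at an unadjusted p under 0.05, the lipogenic Mlxipl described with the sugar genes.

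Ppargc1a, a coactivator of nuclear receptors that drives mitochondrial genes, was among the 12 genes with the smallest p of those higher in high-fat libraries. It had 2.01, 2.47 and 3.14 RPKM in high-fat libraries, against 1.07, 1.62 and 2.09 RPKM in normal-fat libraries, and 5 of the 6 high-fat values lay above every normal-fat value. The difference was 0.39 ± 0.11, 1.31-fold in scaled RPKM + 1 (unadjusted limma p = 0.00460, two-sided exact permutation p = 0.01). The exact test moves the diet labels within each drink, and its 400 arrangements allow no p below 0.005. The 37 nuclear-encoded respiratory chain subunits, which Ppargc1a is known to raise, had 4 positive differences, a median of -0.087 and 0 members at an unadjusted p under 0.05. In the high-share libraries their mean difference was 0.0080, and in the low-share libraries -0.26. Pparg, the fat cell and colonocyte relative of PPAR-alpha, had 1.07, 1.57 and 1.88 RPKM in high-fat libraries, against 1.29, 1.82 and 2.502 RPKM in normal-fat libraries, a difference of -0.17 ± 0.095 that the spread covered (unadjusted limma p = 0.103, exact permutation p = 0.115).

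Cholesterol synthesis genes had mostly negative and cholesterol uptake and efflux genes mostly positive differences, all within the spread between libraries, and both turned in the low-share libraries. Of 26 cholesterol synthesis genes and other SREBP2 targets 3 were positive, and the median was -0.16, but 0 reached an unadjusted p under 0.05. The median was -0.37 with water and 0.076 with sugar, and the mean difference was -0.32 in high-share and 0.19 in low-share libraries. Mvd, a step of the mevalonate pathway, had 12.4, 17.5 and 29.95 RPKM in high-fat libraries, against 16.5, 25.1 and 30.7 RPKM in normal-fat libraries, a difference of -0.38 ± 0.19. Fdft1, which makes squalene, had 11.7, 20.8 and 29.1 RPKM in high-fat libraries, against 15.7, 28.8 and 31.4 RPKM in normal-fat libraries, a difference of -0.36 ± 0.21. In both, 5 of 6 high-fat values lay under the normal-fat median. Hmgcs1, at the entry of the pathway, had 27.7, 50.5 and 70.8 RPKM in high-fat libraries, against 31.2, 65.9 and 77.7 RPKM in normal-fat libraries, with a difference of -0.86 with water and 0.21 with sugar. Genes of cholesterol uptake and efflux had 10 of 12 positive differences and a median of 0.12, which was -0.0082 under upper-quartile scaling. Their mean difference was 0.24 in high-share and -0.11 in low-share libraries. Abca1, which passes cholesterol to HDL, had 1.32, 1.82 and 2.28 RPKM in high-fat libraries, against 0.530, 1.21 and 2.34 RPKM in normal-fat libraries. Abcg8, a subunit of the pump that returns sterols to the lumen, had 40.6, 48.1 and 55.3 RPKM in high-fat libraries, against 29.9, 36.6 and 59.6 RPKM in normal-fat libraries. For both, all 6 high-fat values lay above the normal-fat median, and the unadjusted limma p was 0.147 for Abca1 and 0.177 for Abcg8. The difference of Abca1 was 0.57 in high-share and -0.33 in low-share libraries, and that of Abcg8 was 0.42 in high-share and -0.086 in low-share libraries.

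Bile acid genes varied widely between mice. Fgf15, the hormone that the ileum sends to the liver when bile acids activate the receptor FXR, had 17.1, 44.2 and 66.7 RPKM in high-fat libraries, against 2.98, 29.1 and 63.0 RPKM in normal-fat libraries. The values overlapped over almost their whole range, and the difference was 0.75 ± 0.60 with an interval of -0.55 to 2.05, and 1.11 in high-share and 0.026 in low-share libraries. Nr0b2, the FXR target SHP, had 0.488, 0.904 and 1.73 RPKM in high-fat libraries, against 0.0437, 0.499 and 0.984 RPKM in normal-fat libraries, a difference of 0.38 ± 0.19. Slc51b, needed for bile acids to leave the enterocyte towards the blood, had 163, 194 and 283 RPKM in high-fat libraries, against 144, 297 and 357 RPKM in normal-fat libraries, and all 6 high-fat values lay below the normal-fat median but within the normal-fat range. Its difference was -0.88 with water and 0.032 with sugar. Of the 11 genes of this list 6 were positive, with 0 at an unadjusted p under 0.05.

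The glucose-responsive genes Txnip and Mlxipl had higher values in high-fat libraries, without passing the adjusted test. Txnip (chr3:96557957-96561883 of GRCm38) encodes an inhibitor of thioredoxin that also curbs glucose uptake, and had 135, 144 and 203 RPKM in high-fat libraries, against 93.7, 112 and 124 RPKM in normal-fat libraries. The groups did not overlap, as in 22 of all genes (0.125%). The difference was 0.41 ± 0.13, 1.33-fold, with an interval of 0.13 to 0.68 (unadjusted limma p = 0.00724, exact permutation p = 0.005, the smallest possible). It was 0.52 with water and 0.30 with sugar, and 0.37 in high-share against 0.49 in low-share libraries. Mlxipl encodes ChREBP, the carbohydrate-sensing factor that switches on Txnip and lipogenic genes, and had 13.2, 14.9 and 23.2 RPKM in high-fat libraries, against 7.95, 10.7 and 16.1 RPKM in normal-fat libraries. All 6 high-fat values lay above the normal-fat median and 1 above every normal-fat value (difference 0.45 ± 0.18, unadjusted limma p = 0.0254, exact permutation p = 0.04). For both genes the highest value belonged to HF replicate 2, a low-share library.

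The wider sugar list did not share a direction. Of 26 genes that digest, carry or break down sugars, 17 were positive, with a median of 0.068, 0.34 with water and -0.19 with sugar, and Txnip and Mlxipl were its only 2 members at an unadjusted p under 0.05. That count was 1 without NF replicate 2, NF_Sugar replicate 2 or HF replicate 2, and 0 under upper-quartile scaling. Hk2, an inducible hexokinase, had 2.26, 5.399 and 8.13 RPKM in high-fat libraries, against 4.52, 8.76 and 13.9 RPKM in normal-fat libraries, with all 6 high-fat values under the normal-fat median (difference -0.66 ± 0.31, unadjusted limma p = 0.0568, exact permutation p = 0.1). Pck1, the gluconeogenic enzyme, had 6.84, 12.8 and 57.2 RPKM in high-fat libraries, against 12.1, 21.8 and 52.4 RPKM in normal-fat libraries, a difference of -0.68 ± 0.36. Pfkfb3, which speeds glycolysis, had 1.25, 2.03 and 3.50 RPKM in high-fat libraries, against 2.22, 3.76 and 10.0 RPKM in normal-fat libraries, and again all 6 high-fat values lay under the normal-fat median. Its difference was -0.74 ± 0.30 (unadjusted limma p = 0.0281, exact permutation p = 0.015), with -1.21 with water and -0.28 with sugar. Of the 24 hypoxia-inducible and glycolytic genes, 5 were positive and Pfkfb3 alone reached an unadjusted p under 0.05.

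**Figure D3:**
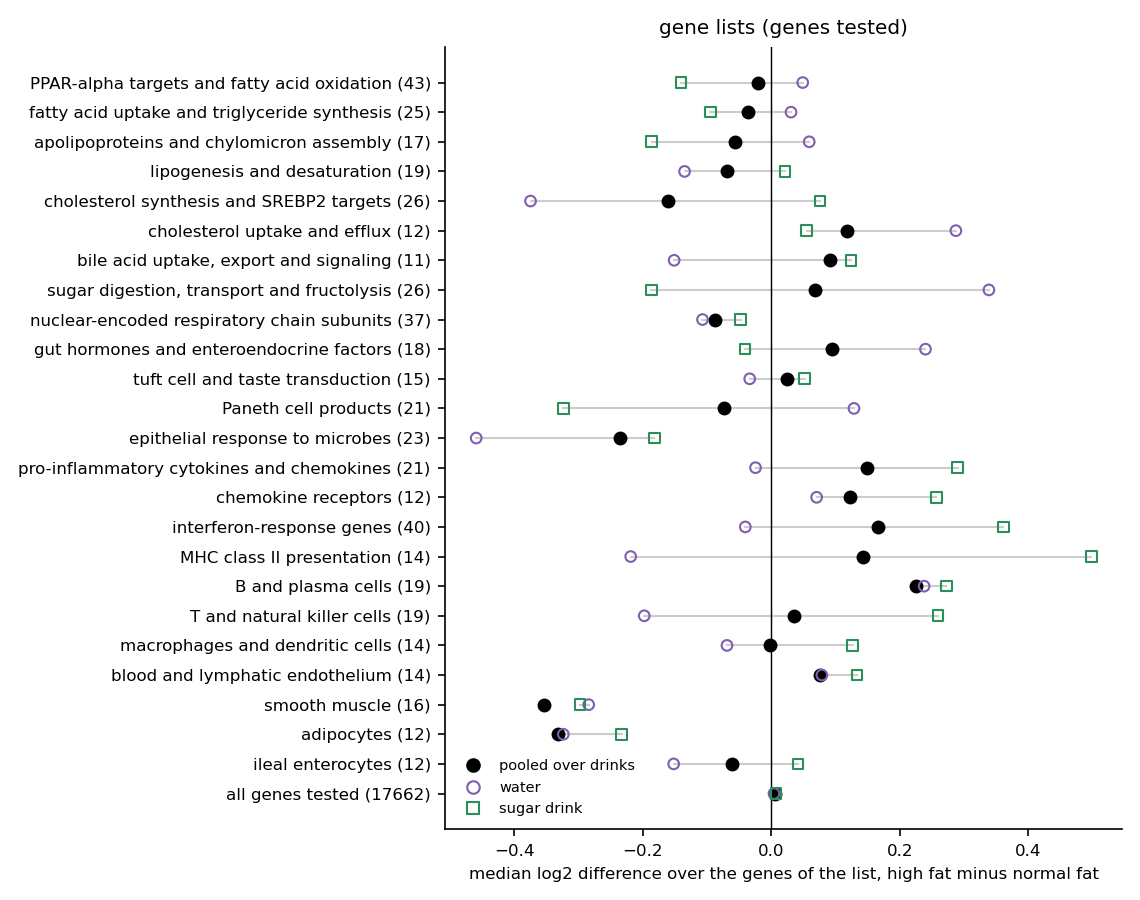
Median log2 difference, high fat minus normal fat (horizontal axis), over the tested genes of 24 gene lists and over all genes (rows, with the number of genes), pooled over drinks (filled circles), with plain water (open circles) and with the sugar drink (open squares). B and plasma cell genes lie to the right at 0.23, and smooth muscle, adipocyte and microbe-response genes lie to the left at -0.35, -0.33 and -0.24, while several immune lists part between the drinks.

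Over the 57 gene lists examined, medians ran from -0.35 to 0.23, 44 lists had a median within 0.1 of 0, and 35 had no member at an unadjusted p under 0.05. The sign of the median differed between water and sugar in 35 of the 57 lists. The lists with the largest shares of members at that level were those of B cells (8 of 19), cytokines and chemokines (8 of 21), endothelium (4 of 14), chemokine receptors (3 of 12) and the epithelial response to microbes (5 of 23). Over all 17662 genes 1.93% were higher and 0.759% lower at that level. The cytokine count includes Ccl2 and Ifng, which were tested only through HF_Sugar, and of the other 19 genes 5 were higher and 1 lower.

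Genes that the epithelium turns on in contact with microbes were lower in value in high-fat libraries. Of 23 such genes 3 were positive, the median was -0.24, and 5 (Il18, Reg3g, Saa1, Saa2 and Fut2) were lower at an unadjusted p under 0.05, beside 0.759% of all genes. Reg3g encodes a lectin that kills Gram-positive bacteria and is known to be induced by attached microbes. It had 264, 1014 and 4146 RPKM in high-fat libraries, against 1097, 2026 and 7338 RPKM in normal-fat libraries, so 5 of 6 high-fat values lay under the normal-fat median, and the difference was -1.24 ± 0.45, 0.425-fold (unadjusted limma p = 0.0186, exact permutation p = 0.03). Its near relative Reg3b had 628, 1896 and 7867 RPKM in high-fat libraries, against 2229, 2608 and 9912 RPKM in normal-fat libraries, a difference of -0.91 ± 0.43 (unadjusted limma p = 0.0554, exact permutation p = 0.07). Saa1, a serum amyloid A gene induced by adherent bacteria, had 1.15, 41.7 and 222 RPKM in high-fat libraries, against 57.3, 89.4 and 652 RPKM in normal-fat libraries. Its lowest value, in HF replicate 1, was far under all others, and the difference was -1.92 ± 0.78 with an interval of -3.64 to -0.21, and -2.61 in high-share and -0.55 in low-share libraries. Saa2 had 0.0997, 1.30 and 11.8 RPKM in high-fat libraries, against 1.62, 3.998 and 33.0 RPKM in normal-fat libraries, a difference of -1.27 ± 0.55. Saa1 and Saa2, like Reg3b and Reg3g, are near copies of each other, and how reads shared between them were assigned is not given in the sources used here.

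Il18, a cytokine made by the epithelium, had 2.80, 6.67 and 13.2 RPKM in high-fat libraries, against 9.58, 11.5 and 17.7 RPKM in normal-fat libraries, with 4 high-fat values below every normal-fat value (difference -0.86 ± 0.31, unadjusted limma p = 0.0164, exact permutation p = 0.045). Fut2, the fucosyltransferase that decorates the epithelial surface with sugars for commensals, had 0.239, 0.921 and 3.02 RPKM in high-fat libraries, against 0.808, 2.32 and 8.25 RPKM in normal-fat libraries, a difference of -0.79 ± 0.36. The list was lower in value with both drinks, with median differences of -0.46 with water and -0.18 with sugar, and in both kinds of library, with mean differences of -0.51 in high-share and -0.37 in low-share ones. Between 2 and 8 of the 23 lay under an unadjusted p of 0.05 when any 1 library was left out. The count was 2 without NF replicate 1, without NF replicate 2, without NF_Sugar replicate 2 and without HF replicate 1, 3 without HF replicate 2, HF replicate 3 or HF_Sugar replicate 3, and 8 without NF_Sugar replicate 1. Paneth cell products, the antimicrobial peptides of the crypt base, had 7 of 21 positive, a median of -0.073 and 0 members at that level. In the goblet cell list, Muc3, a membrane mucin, had 319, 440.3 and 603 RPKM in high-fat libraries, against 447, 561 and 945 RPKM in normal-fat libraries, and Gcnt3, an enzyme that branches mucin sugars, had 7.83, 10.7 and 12.5 RPKM in high-fat libraries, against 10.2, 14.3 and 26.6 RPKM in normal-fat libraries. Both sat just above an unadjusted limma p of 0.05, at 0.0587 for Muc3 and 0.0581 for Gcnt3.

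The metallothioneins Mt1 and Mt2, which bind zinc and other metals, followed the same direction. Mt2 (chr8:94172664-94173568) had 22.9, 31.1 and 70.6 RPKM in high-fat libraries, against 37.8, 82.3 and 89.3 RPKM in normal-fat libraries. All 6 high-fat values lay below the normal-fat median and 4 below every normal-fat value, and the difference was -0.91 ± 0.32, 0.531-fold (unadjusted limma p = 0.0144, exact permutation p = 0.065). The 2 lowest normal-fat values were those of the low-share libraries. Mt1, its neighbour and near copy, had 63.2, 71.7 and 201 RPKM in high-fat libraries, against 82.8, 152 and 247 RPKM in normal-fat libraries, a difference of -0.77 ± 0.32. Slc40a1, the iron exporter ferroportin, had 1.25, 2.87 and 5.19 RPKM in high-fat libraries, against 2.79, 4.31 and 5.23 RPKM in normal-fat libraries, a difference of -0.37 ± 0.16. These 3 were the only members of the 20 genes of iron and heme handling under an unadjusted p of 0.05, and the list median was -0.0019. The count was 1 without NF replicate 1, NF_Sugar replicate 3, HF replicate 3 or HF_Sugar replicate 3.

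B cell genes had the highest median of the lists. Of 19 B and plasma cell genes 17 were positive, the median was 0.23, and 8 were higher at an unadjusted p under 0.05, beside 1.93% of all genes. Cd22, an inhibitory coreceptor of B cells (chr7:30865402-30880342), had 2.43, 2.94 and 3.70 RPKM in high-fat libraries, against 1.29, 1.69 and 2.72 RPKM in normal-fat libraries. All 6 high-fat values lay above the normal-fat median and 3 above every normal-fat value. The difference was 0.50 ± 0.13, 1.41-fold in scaled RPKM + 1 (unadjusted limma p = 0.00263, exact permutation p = 0.01). Cd37, a B cell tetraspanin, had 4.68, 6.69 and 9.98 RPKM in high-fat libraries, against 3.22, 4.04 and 6.03 RPKM in normal-fat libraries, a difference of 0.52 ± 0.16. Spib, Pax5, Blk, Fcer2a and Ms4a1, which encode B cell factors, a kinase and surface proteins, had differences of 0.38, 0.23, 0.35, 0.35 and 0.21, with all groups overlapping.

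Chemokine receptor genes had 8 of 12 positive differences, a median of 0.12, 0.071 with water and 0.26 with sugar, and 3 members (Ccr7, Cxcr5 and Ccr6) higher at an unadjusted p under 0.05, beside 1.93% of all genes. Ccr7 is 1 of 3 genes of the list with values called irregular below, and without those genes the median was 0.034. The count at that level ran from 2 to 5 with 1 library left out, with 2 without NF replicate 3, NF_Sugar replicate 2, NF_Sugar replicate 3, HF replicate 3 or HF_Sugar replicate 1, and 5 without NF replicate 2. Cxcr5, the receptor that guides B cells into follicles, had 1.79, 2.31 and 3.77 RPKM in high-fat libraries, against 0.940, 1.33 and 2.45 RPKM in normal-fat libraries, a difference of 0.50 ± 0.16 that was 0.74 in high-share and 0.0091 in low-share libraries. Ccr6, which draws cells to the follicle dome, had 0.516, 0.673 and 0.969 RPKM in high-fat libraries, against 0.204, 0.272 and 1.02 RPKM in normal-fat libraries, and its difference was 0.49 in high-share and -0.062 in low-share libraries. Of 14 class II genes 12 were positive, with a median of 0.14, and 2 reached that level, H2-Ob and H2-Eb2. The count was 0 under upper-quartile scaling, and 1 without NF replicate 1, NF replicate 3, NF_Sugar replicate 2, NF_Sugar replicate 3, HF replicate 3, HF_Sugar replicate 1 or HF_Sugar replicate 3. H2-Ob, a class II chaperone of B cells, had 3.08, 3.996 and 4.52 RPKM in high-fat libraries, against 1.94, 2.56 and 3.99 RPKM in normal-fat libraries, a difference of 0.59 in high-share and -0.016 in low-share libraries. Its neighbour H2-Eb2 had 1.117, 1.46 and 1.75 RPKM in high-fat libraries, against 0.523, 0.964 and 1.52 RPKM in normal-fat libraries, a difference of 0.55 in high-share and -0.12 in low-share libraries. Of 13 genes of immunoglobulin constant regions and IgA transport, Ighd was higher and Ighg3, with a difference of -0.37, lower at that level. Ighd, the constant region of IgD on resting B cells, had 7.28, 9.02 and 10.1 RPKM in high-fat libraries, against 4.31, 5.76 and 9.80 RPKM in normal-fat libraries, a difference of 0.69 in high-share and -0.044 in low-share libraries. In Cxcr5, Ccr6, H2-Ob, H2-Eb2 and Ighd the difference was thus positive in the high-share libraries and near 0 or negative in the low-share ones.

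Of plasma cell genes 3 were looked at after their values were seen. Jchain, which joins IgA units, had 54.0, 91.2 and 194 RPKM in high-fat libraries, against 56.7, 107 and 138 RPKM in normal-fat libraries. Its difference of 0.080 ± 0.27 was made up of -0.37 with water and 0.53 with sugar, and turned negative under upper-quartile scaling. Prdm1, a regulator of plasma cells, differed by -0.018 ± 0.15, with -0.25 with water and 0.21 with sugar, and Sdc1, their surface marker, by -0.040 ± 0.15. Prdm1 and Sdc1 were the only 2 negative members of the B and plasma cell list. Mzb1, Tnfrsf17 and Irf4, also in that list, had positive differences that are not given here, so these genes do not stand for all plasma cell genes.

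The B cell differences were larger in the high-share libraries, and this split was not tested. The mean of the list differed by 0.40 there and by -0.022 in the low-share libraries, and Cd22 by 0.73 there against 0.022 in low-share libraries. Without the 4 low-share libraries 13 of the 19 lay under an unadjusted p of 0.05, beside 3.61% of all genes. The list mean ranged from 2.32 to 2.82 log2 units in high-fat and from 2.04 to 2.44 in normal-fat libraries. With both drinks the list median was similar, 0.24 with water and 0.27 with sugar. The count of 8 became 5 without NF replicate 1 or NF_Sugar replicate 3 and 2 under upper-quartile scaling, which moves the median of all genes to -0.11. T and natural killer cell genes had 11 of 19 positive with a median of 0.035, macrophage and dendritic cell genes 7 of 14 with a median of -0.0020, and both lists had 0 members at an unadjusted p under 0.05.

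**Figure D4:**
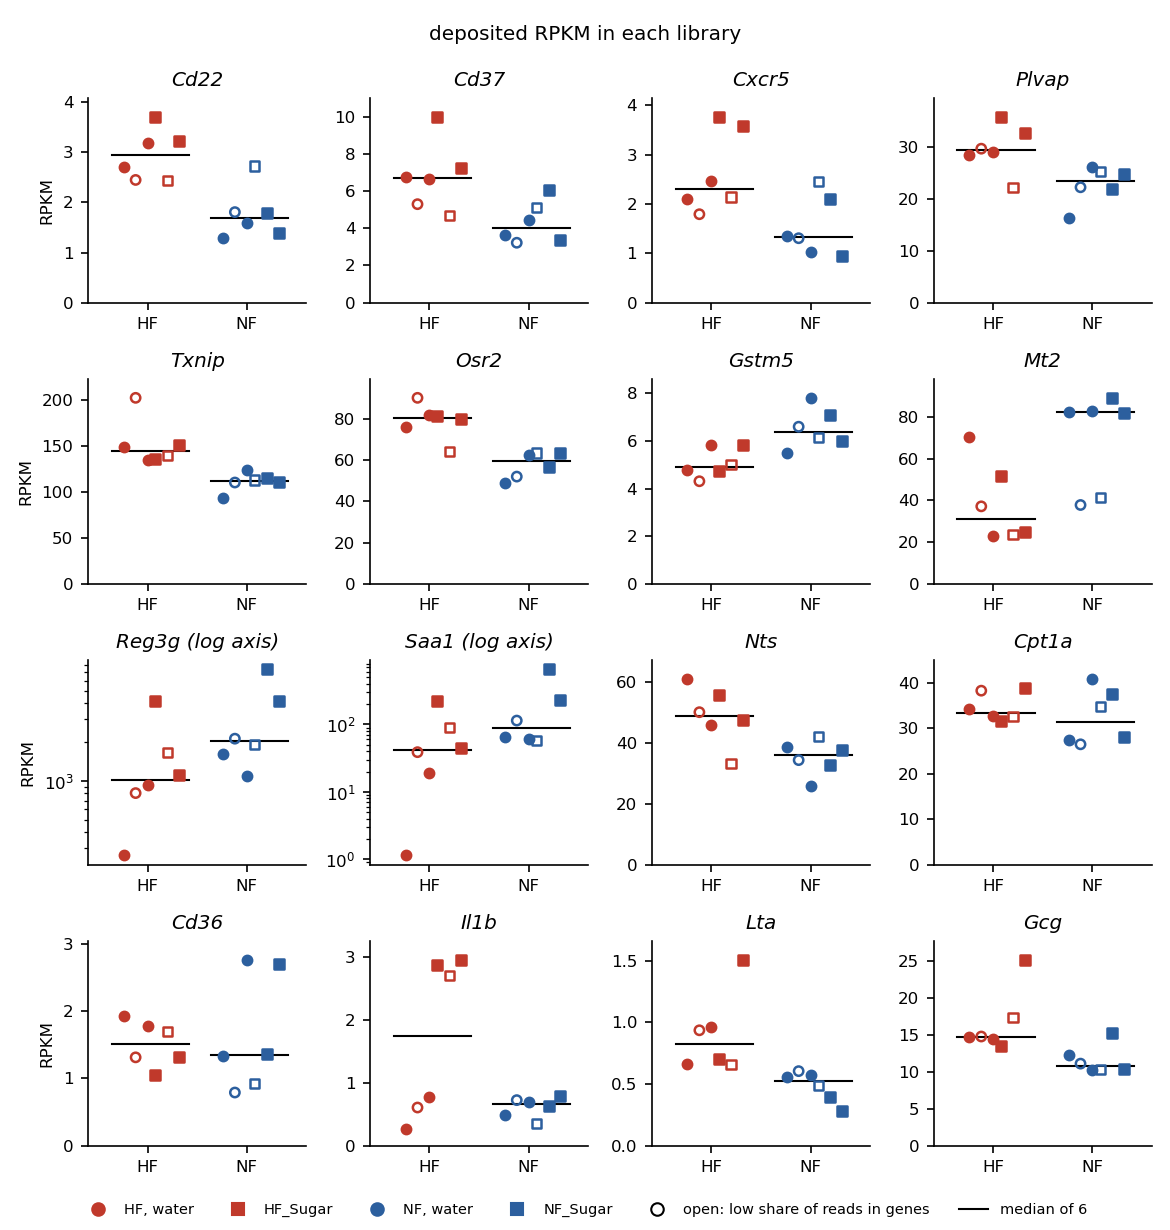
Deposited RPKM of 16 genes in each library, with high fat at the left (red) and normal fat at the right (blue) of each panel, circles for plain water, squares for sugar, open symbols for low-share libraries and a line at the median of 6; the axes start at 0 except for the log axes of Reg3g and Saa1. In Txnip, Osr2 and Lta the groups do not overlap, Il1b is high in the 3 HF_Sugar libraries alone, and Cpt1a and Cd36 overlap over their whole range.

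Cytokine and chemokine genes had a positive median difference with the sugar drink, in a list that includes genes fixed by the filter and genes with irregular values. Of 21 such genes 14 were positive, 7 (Ccl4, Ccl2, Cxcl10, Ifng, Lta, Il1b and Tgfb1) were higher and 1 (Il18) lower at an unadjusted p under 0.05, beside 1.93% and 0.759% of all genes, while the median was 0.29 with sugar and -0.024 with water. Ccl2 and Ifng reached the 0.5 RPKM needed for testing in the 3 HF_Sugar libraries alone, so their direction was fixed by that filter, and of the other 19 genes 5 were higher and 1 lower. The mean difference of the list was 0.21 in high-share and -0.044 in low-share libraries. Of the 21 genes, 4 carry values called irregular below, and the pooled median was 0.15 with them and 0.070 without them. The median with sugar is not given without these genes or without Ccl2 and Ifng. Ccl4, a chemokine for T cells and monocytes, had 0.634, 0.891 and 1.35 RPKM in high-fat libraries, against 0.0637, 0.381 and 0.690 RPKM in normal-fat libraries, with 5 of 6 high-fat values above every normal-fat value (difference 0.45 ± 0.12, unadjusted limma p = 0.00217, exact permutation p = 0.015). Lta, lymphotoxin alpha, which lymphoid tissue needs to form, had 0.660, 0.821 and 1.51 RPKM in high-fat libraries, against 0.284, 0.522 and 0.604 RPKM in normal-fat libraries. Its groups did not overlap in deposited RPKM but did so after scaling. The difference was 0.33 ± 0.10, with 0.21 with water and 0.45 with sugar. Ccl2, the monocyte chemokine, had 0.184, 0.790 and 1.95 RPKM in high-fat libraries, against 0, 0.178 and 0.403 RPKM in normal-fat libraries, and its difference was 1.13 with sugar against 0.16 with water. Since Ccl2 was tested only through HF_Sugar, no direction is read from these 2 differences. Interferon-response genes had 36 of 40 positive with a median of 0.17, which was 0.36 with sugar and -0.040 with water, and 1 of them, Cmpk2, lay under an unadjusted p of 0.05. That count was 7 without NF replicate 2, 2 without HF replicate 1 or HF replicate 3, and 0 without HF replicate 2. The mean difference of the interferon list was 0.24 in high-share and -0.016 in low-share libraries, and its median was 0.044 under upper-quartile scaling. Cmpk2, a mitochondrial nucleotide kinase, had 8.09, 10.6 and 13.4 RPKM in high-fat libraries, against 3.79, 7.65 and 9.41 RPKM in normal-fat libraries. Class II genes also had different medians with the 2 drinks, with a median of 0.50 with sugar and -0.22 with water.

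Several of these genes carry values that are not whole reads. Read counts were recovered from RPKM, gene length and depth. A value is called irregular where it was deposited with 7 significant digits, or lay more than 0.1 read from a whole number while all libraries of the other groups lay within 0.1 read. The second check covered only genes with at most 300 reads in any library and enough values above 0 in the other groups. Of 364129 values above 0, 17 had 7 digits and the rest 6 or fewer, and 12 of the 17 were in HF_Sugar and 5, all of Defa genes, in NF libraries. Il1b, which encodes the cytokine interleukin-1 beta, gave 123.919, 141.461 and 92.0528 reads in HF_Sugar replicates 1, 2 and 3, of which replicates 1 and 2 are irregular. Il1b is among the genes with 7-digit values in HF_Sugar. By the read check alone, replicate 1 lay 0.081 and replicate 3 lay 0.053 read from a whole number, both under the 0.1 limit. In the libraries outside HF_Sugar, Il1b lay at most 2.4e-05 read away. Tnf, Cxcl10, Ifng, Ccr7 and Tas1r3 also had fractional reads in HF_Sugar libraries. Ifng gave 22.5443, 18.7343 and 15.4349 reads in the 3 HF_Sugar libraries, and also 0.622789 and 4.66067 in NF replicates 1 and 3. Gcg, the precursor gene of the hormone GLP-1, gave 708.19 reads in HF_Sugar replicate 2, and Pax5 gave 152.767 in NF replicate 1. In the table as a whole the share of checked genes with fractional reads was 0.966% in HF_Sugar, 0.841% in HF, 0.821% in NF_Sugar and 2.089% in NF. What made these values was not tested.

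Il1b had 0.263, 1.74 and 2.96 RPKM in high-fat libraries, against 0.353, 0.659 and 0.790 RPKM in normal-fat libraries. The 3 HF_Sugar libraries held the 3 highest values and of the 3 HF libraries 1 lay below every normal-fat value and the others lay among them. The pooled difference was 0.59 ± 0.22 (unadjusted limma p = 0.0228, exact permutation p = 0.07), made up of 1.27 ± 0.14 with sugar and -0.10 ± 0.14 with water. With sugar it passed limma's adjusted test (adjusted p = 0.0452, Benjamini-Hochberg), and 2 of the 3 HF_Sugar values behind this call are irregular. With sugar 0 genes passed when genes with irregular values were left out, a step that takes out Il1b itself. With sugar 0 passed without any 1 of 11 libraries in turn (each but HF replicate 1), and 1 passed without HF replicate 1. Tnf had 0.367, 0.629 and 1.93 RPKM in high-fat libraries, against 0.385, 0.520 and 0.704 RPKM in normal-fat libraries, a difference of 0.21 ± 0.15 (0.54 with sugar and -0.13 with water). Cxcl10 had 0.901, 1.71 and 4.01 RPKM in high-fat libraries, against 0.376, 0.983 and 1.31 RPKM in normal-fat libraries, and Ifng 0.0323, 0.360 and 0.773 RPKM in high-fat libraries, against 0, 0.0253 and 0.149 RPKM in normal-fat libraries, a gene under 1 RPKM throughout. Tgfb1, which has regular values and encodes a cytokine that restrains inflammation, had 1.75, 2.30 and 3.601 RPKM in high-fat libraries, against 1.28, 1.70 and 2.26 RPKM in normal-fat libraries, and its difference of 0.28 ± 0.11 was 0.29 with sugar and 0.26 with water.

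The difference of the fat effect between drinks, tested as an interaction in limma, passed in 0 of 17662 genes. At an unadjusted p under 0.05 there were 419 (2.37%), and the smallest adjusted p was 0.527, that of Il1b. Among genes with a mean of at least 1 RPKM, leaving out predicted models and clones, the next by p were Slc6a4 and Prr3. Ifng had a smaller p than both but a lower mean, and passed the filter only through HF_Sugar. Slc6a4, the serotonin transporter that clears serotonin from the mucosa, had 6.52, 11.003 and 13.96 RPKM in high-fat libraries, against 8.14, 9.63 and 10.9 RPKM in normal-fat libraries, with a fat difference of 0.46 with water and -0.31 with sugar. Prr3 had fat differences of 0.42 with sugar and -0.10 with water. Without HF replicate 1, 1 gene passed the interaction test, and without NF replicate 3 the count at an unadjusted p under 0.05 was 728.

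Hormone genes of the enteroendocrine cells had mostly positive differences. Of 18 such genes 15 were positive, the median was 0.094, 0.24 with water and -0.041 with sugar, and 3 were higher at an unadjusted p under 0.05, beside 1.93% of all genes. The mean difference was 0.22 in high-share and -0.068 in low-share libraries. Gcg had 13.5, 14.7 and 25.1 RPKM in high-fat libraries, against 10.2, 10.7 and 15.2 RPKM in normal-fat libraries, and all 6 high-fat values lay above the normal-fat median (difference 0.44 ± 0.15, 1.35-fold, unadjusted limma p = 0.0141, exact permutation p = 0.01). Nts, neurotensin, a peptide released on fat intake that aids fat absorption, had 33.3, 49.0 and 61.2 RPKM in high-fat libraries, against 25.8, 36.1 and 42.3 RPKM in normal-fat libraries, with 5 high-fat values above every normal-fat value (difference 0.42 ± 0.19, 0.63 in high-share and 0.00057 in low-share libraries). Sst, somatostatin, had 23.6, 45.0 and 56.6 RPKM in high-fat libraries, against 21.4, 27.5 and 39.3 RPKM in normal-fat libraries, a difference of 0.61 in high-share and 0.070 in low-share libraries, and Neurod1, a differentiation factor of these cells, had 0.442, 0.660 and 1.196 RPKM in high-fat libraries, against 0.253, 0.424 and 0.624 RPKM in normal-fat libraries. Under upper-quartile scaling 8 of the 18 were positive and 0 reached that level. Leaving out 1 library gave between 1 and 5 of the 18, with 1 without NF replicate 2, NF replicate 3, NF_Sugar replicate 2, HF replicate 1, HF replicate 3 or HF_Sugar replicate 3, and 5 without HF_Sugar replicate 2.

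Taste transduction genes stayed near 0. The 15 genes of tuft cells and taste transduction had a median of 0.024, with 10 positive and 0 at an unadjusted p under 0.05. Tas1r3, a subunit of the sweet and umami receptors, had 0.238, 0.513 and 0.956 RPKM in high-fat libraries, against 0.274, 0.298 and 0.470 RPKM in normal-fat libraries. It reached the 0.5 RPKM needed for testing in the 3 HF_Sugar libraries alone, and was kept by name whatever its level. Its pooled difference was 0.18 ± 0.097 (unadjusted limma p = 0.0945, exact permutation p = 0.09), with 0.42 with sugar and -0.070 with water, and its values in the 3 HF_Sugar libraries were irregular. The pooled and sugar differences rest on the group through which it reached that level, so no direction is read from them. Trpm5, the channel of taste and tuft cells, had 1.28, 1.51 and 1.996 RPKM in high-fat libraries, against 0.892, 1.34 and 1.52 RPKM in normal-fat libraries, a difference of 0.12 ± 0.089.

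Endothelial genes were slightly higher in value. Of 14 genes of blood and lymphatic endothelium 11 were positive, the median was 0.077, and 4 were higher at an unadjusted p under 0.05 (Plvap, Eng, Cdh5 and Kdr), beside 1.93% of all genes. The mean difference of the list was 0.10 in high-share and 0.060 in low-share libraries. Flt1, 1 of the 14, reached the 0.5 RPKM needed for testing in high-fat libraries alone, so its direction was fixed by that filter. Of the other 13 genes 4 were higher and 0 lower at that unadjusted p. Plvap, which forms the diaphragms of capillary pores, had 22.2, 29.3 and 35.7 RPKM in high-fat libraries, against 16.2, 23.4 and 26.1 RPKM in normal-fat libraries, with 5 high-fat values above every normal-fat value (difference 0.34 ± 0.12, unadjusted limma p = 0.0182, exact permutation p = 0.03). Its difference was 0.50 in high-share and 0.016 in low-share libraries. Eng, a TGF-beta coreceptor, had 3.03, 3.52 and 4.19 RPKM in high-fat libraries, against 2.27, 3.00 and 3.64 RPKM in normal-fat libraries. Kdr, the main VEGF receptor, had 0.685, 0.841 and 1.21 RPKM in high-fat libraries, against 0.483, 0.623 and 0.725 RPKM in normal-fat libraries, and Cdh5, the junction protein of endothelium, had 1.52, 1.96 and 2.83 RPKM in high-fat libraries, against 1.30, 1.62 and 1.80 RPKM in normal-fat libraries. Robo4, an endothelial guidance receptor outside the list and named here after its values were seen, had 0.861, 0.940 and 1.02 RPKM in high-fat libraries, against 0.542, 0.653 and 0.773 RPKM in normal-fat libraries. Its groups did not overlap, as in 22 of all genes (0.125%), and its difference was 0.23 ± 0.056, 1.17-fold in scaled RPKM + 1 (unadjusted limma p = 0.00177, exact permutation p = 0.005). Robo4 was picked by these values, so they add nothing to the result of the list. The list count of 4 was 0 under upper-quartile scaling, where the list median was -0.013 beside -0.11 for all genes. It was 1 without NF replicate 1, and 2 without NF_Sugar replicate 3, HF replicate 2 or HF_Sugar replicate 3.

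Muscle and fat cell genes had lower values in high-fat libraries within the high-share libraries and higher ones within the low-share libraries. All 16 smooth muscle genes had a negative difference, with a median of -0.35, but 0 reached an unadjusted p under 0.05. In the high-share libraries their mean differed by -0.71, and in the low-share libraries by 0.46, the other way. Without the 4 low-share libraries all 16 lay under an unadjusted p of 0.05, beside 3.19% of all genes, and 9 did so without HF_Sugar replicate 2 and 7 without NF_Sugar replicate 1. Actg2, a smooth muscle actin, had 88.3, 104 and 154 RPKM in high-fat libraries, against 95.6, 152 and 283 RPKM in normal-fat libraries. Myl9, a myosin light chain, had 225, 256 and 399 RPKM in high-fat libraries, against 236, 349 and 409 RPKM in normal-fat libraries, and its highest high-fat value was that of HF_Sugar replicate 2. Of 12 adipocyte genes 1 was positive, with a median of -0.33. Cfd, adipsin, made by fat cells, had 1.07, 3.23 and 9.54 RPKM in high-fat libraries, against 0.0912, 12.4 and 41.0 RPKM in normal-fat libraries, and its difference was -2.81 in high-share and 2.03 in low-share libraries. The list mean ranged from 4.41 to 5.41 log2 units in high-fat and from 4.55 to 5.52 in normal-fat libraries for smooth muscle, and from 1.33 to 2.28 in high-fat and from 1.12 to 2.75 in normal-fat libraries for adipocytes. Pdk4, Angptl4 and the cholesterol synthesis genes had the same 2 signs in the 2 kinds of library, and the part of muscle and fat cell RNA in their differences was not tested. Red blood cell genes, 4 in number, had a median of -0.13, and the 12 ileal enterocyte genes one of -0.060.

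**Figure D5:**
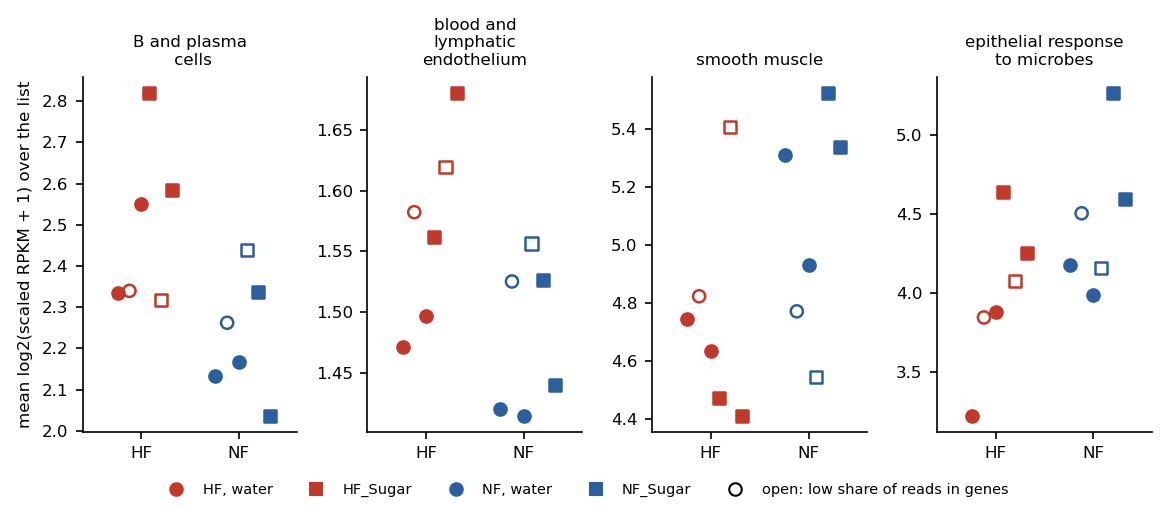
Mean log2(scaled RPKM + 1) over the tested genes of 4 lists (vertical axis, not from 0) in each of the 12 libraries, high fat (red) left of normal fat (blue), with open symbols for low-share libraries. B and plasma cell genes are highest in HF_Sugar replicate 1, smooth muscle genes are high in HF_Sugar replicate 2 among the high-fat libraries, and the microbe-response genes overlap with 3 high-fat libraries below every normal-fat one.

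The genes that led by unadjusted p in each direction were of mixed function. Among the 12 higher in high-fat libraries, Osr2 (chr15:35296098-35303305), a zinc finger factor of development, had 64.4, 80.6 and 90.4 RPKM in high-fat libraries, against 48.8, 59.7 and 63.5 RPKM in normal-fat libraries. Its groups did not overlap in deposited RPKM but did so after scaling. The difference was 0.41 ± 0.11, 1.33-fold (unadjusted limma p = 0.00251, exact permutation p = 0.005), with 0.46 in high-share and 0.30 in low-share libraries. Nxf1, the main exporter of mRNA from the nucleus, also had no overlap before rounding, with 9.30, 10.7 and 11.9 RPKM in high-fat libraries, against 7.54, 8.60 and 9.30 RPKM in normal-fat libraries. Rasl11a, a small GTPase-like gene, had 0.906, 1.52 and 1.996 RPKM in high-fat libraries, against 0.545, 0.799 and 1.24 RPKM in normal-fat libraries, and Pank4, a member of the pantothenate kinase family, had 3.59, 4.12 and 4.83 RPKM in high-fat libraries, against 2.63, 3.05 and 3.90 RPKM in normal-fat libraries. Uck1, a uridine-cytidine kinase, Clk2, a kinase of splicing factors, Map4k2, Fscn1, which bundles actin, and Cbfa2t3, a corepressor, had differences of 0.36, 0.26, 0.28, 0.25 and 0.26. In each of these 5 genes at least 4 of 6 high-fat values lay above every normal-fat value.

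Among the 12 lower in high-fat libraries, Gstm5, a glutathione transferase, had 4.31, 4.89 and 5.84 RPKM in high-fat libraries, against 5.51, 6.38 and 7.81 RPKM in normal-fat libraries, with 4 high-fat values below every normal-fat one (difference -0.33 ± 0.086, 0.793-fold, unadjusted limma p = 0.00228, exact permutation p = 0.02). Isg20, an interferon-induced RNA exonuclease, was 1 of the 2 genes whose high-fat values all lay below the normal-fat ones before rounding, with 0.970, 1.199 and 1.34 RPKM in high-fat libraries, against 1.34, 1.52 and 2.12 RPKM in normal-fat libraries. After scaling its groups overlapped, and its difference of -0.28 ± 0.076 ran against the positive median of the interferon list. The other, Efhd2, a calcium-binding protein gene named here after its values were seen, had 109.6, 130.2 and 133 RPKM in high-fat libraries, against 135, 139 and 203 RPKM in normal-fat libraries, a difference of -0.26 ± 0.15. Rtn4r, the Nogo receptor, had 0.907, 1.09 and 1.31 RPKM in high-fat libraries, against 1.22, 1.40 and 2.22 RPKM in normal-fat libraries, Arl3, a GTPase of cilia, had 2.11, 2.37 and 3.72 RPKM in high-fat libraries, against 2.66, 3.57 and 4.28 RPKM in normal-fat libraries, and Acot7, a cytosolic acyl-CoA thioesterase, had 10.8, 11.7 and 14.4 RPKM in high-fat libraries, against 12.3, 13.7 and 18.2 RPKM in normal-fat libraries. Ppie, Nme6, Bzw2, Isy1 and Bccip had differences between -0.28 and -0.23. Nudc-ps1 and Atp5l-ps1 are processed copies of coding genes, so their differences of -0.51 and -0.31 are uncertain, since reads cannot always be told from those of the parent gene. Gpx3, a secreted glutathione peroxidase, had 19.5, 21.7 and 27.4 RPKM in high-fat libraries, against 24.6, 26.5 and 36.3 RPKM in normal-fat libraries, a difference of -0.35 ± 0.15, and was the only one of 21 NRF2 antioxidant genes under an unadjusted p of 0.05. Car1, a carbonic anhydrase of the large bowel and red cells, had very uneven values, 0, 0.0482 and 34.002 RPKM in high-fat libraries, against 0, 8.67 and 241 RPKM in normal-fat libraries, and a difference of -1.99 ± 1.45 with an interval of -5.17 to 1.19.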

How the data were processed

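Ileal RNA of 12 C57BL/6 mice was sequenced by the authors on the Ion Proton after poly-A selection, with RNA of an integrity number above 8. The authors used STAR within Partek Flow and the build mm10, and values were given as RPKM per gene symbol, and the deposited RPKM were used here. The labels and the study's methods give different amounts of input RNA. The authors tested counts with DESeq2. Counts are not used here.

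Of 44231 table entries, 26 had a bare number for a name and were left out, which took away 0.135% or less of the RPKM in each library. 40607 genes were matched by symbol to GENCODE M21 (GRCm38). The 12 per-sample files were identical to their columns. Depth was recovered from low values of 12445 single-exon genes, and 94.1% to 95.9% of low values came out as whole reads within 0.03. Scaling used trimmed means of M values (30% and 5% trimmed, factors 0.882 to 1.18). Genes that reached 0.5 RPKM in 3 or more libraries, and Tas1r3, were fitted as log2(scaled RPKM + 1) with limma 3.58.1 in R 4.3.3 (trend, diet and drink as terms, 9 residual degrees of freedom), with Benjamini-Hochberg adjustment over all genes and a threshold of 0.05. The model was tested on simulated data. Labels give 1 mouse per library, so p-values measure the spread between libraries of different mice. The model has no term for low against high share, so that split is part of this spread. Library pairs had correlations of 0.961 to 0.990, and no pair was identical.

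Named genes were up to 12 per direction by p with a mean of at least 1 RPKM (no predicted models or receptor segments), up to 4 members per list (2 for marker lists), Tas1r3, Il1b, Tnf and Pparg, and 3 interaction genes. The members, lists and tests were chosen with earlier results of these data known. Spib, Pax5, Blk, Fcer2a, Ms4a1, Jchain, Sdc1, Prdm1, Lta, Tgfb1, Reg3b, Fut2, Cpt1a, Cd36, Angptl4, Pdk4, Hmgcs1, Cdh5, Kdr, Car1, Robo4, Vil1, Fabp6, Slc10a2 and Efhd2 fell outside that rule and were chosen after their values were seen. Alternatives were other scalings, pseudocounts, filters and models, limma-voom on recovered reads, and subsets of genes and libraries. Python 3.11.15 (numpy 2.4.6, pandas 2.3.3, scipy 1.17.1, matplotlib 3.10.9) was used for values and figures.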

Additional observations from a re-analysis of the deposited data

Results flagged for a closer look

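In 17 of 230 groups of 6 libraries examined (103 genes and 12 gene lists, each in high-fat and normal-fat libraries) 1 library lay far from the other 5, with a gap above 0.625 of the group's range. Chance alone gives this in about 1 of 20 groups. Values are log2(scaled RPKM + 1).

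Among high-fat libraries, HF replicate 2 was highest for Txnip (7.69, others at most 7.21), Mlxipl (4.61, others at most 4.09) and Ppargc1a (2.06, others at most 1.78). HF replicate 1 was highest for Arl3 (2.23), HF_Sugar replicate 1 for Tgfb1 (2.20) and Robo4 (1.02), and HF_Sugar replicate 2 for Myl9 (8.71). HF_Sugar replicate 3 was highest for Car1 (5.00, others at most 0.11) and lowest for Angptl4 (1.98, others at least 4.08).

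Among normal-fat libraries, NF_Sugar replicate 1 was highest for the B cell genes Fcer2a (1.75) and Ccr6 (1.07), highest for Mlxipl (4.19) and lowest for Hmgcs1 (5.11, others at least 5.95). NF_Sugar replicate 2 was highest for Rtn4r (1.68) and lowest for Cmpk2 (2.25) and Slc51b (7.16, others at least 8.08). NF replicate 1 was highest for Pex11a (4.46).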

How the results depend on the processing

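The count of genes passing the adjusted test for fat was 0 in both directions under all 29 alternatives (scaling, pseudocount, filter, gene subset, model, variance, limma-voom, the study's threshold, library subsets and each library left out), and the smallest adjusted p of any of the 103 named genes was 0.362. The count at an unadjusted p under 0.05 (475, with 341 higher and 134 lower) was 1348 (627 and 721) with no filter, 101 (54 and 47) at a mean of at least 5 RPKM, 1361 (804 and 557) with sample quality weights and 1200 (637 and 563) without the 4 low-share libraries. Upper-quartile scaling gave 64 higher and 458 lower, and library class as a covariate gave 709 (483 and 226). With 1 library left out the count ran from 320 to 888, 198 to 621 higher and 97 to 338 lower. Same-numbered mice had correlations of -0.44 to 0.55 and differently numbered mice of -0.59 to 0.49. With ranges this alike, they do not show whether replicate numbers pair the mice. The replicate block gave 467. The interaction count of 0 was 0 to 1 with 1 library left out, and its 419 at an unadjusted p under 0.05 were 648 with library class and 317 to 728 with 1 library left out. With plain water 4 genes passed with no filter, and 0 to 2 with 1 library left out. With sugar the 1 gene became 0 as deposited, under upper-quartile scaling, at pseudocounts of 0.1 and 0.5, with no filter, at a mean of at least 5 RPKM, without irregular genes, with library class and without low-share libraries, 2 among protein-coding genes, and 0 to 1 with 1 library left out. The causes were not tested. Of the 103 named genes 80 kept their sign throughout. With 12 libraries, a gene of median spread is bounded to about 0.28 log2 units.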

Other observations

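Stress and rhythm genes are not described above. Of 18 heat shock chaperone genes 5 were positive, with a median log2 difference of -0.16, and of 17 circadian clock genes 12 were positive, with a median of 0.085. The heat shock median was -0.21 with water and -0.066 with sugar, and ran from -0.23 to -0.096 with 1 library left out. The mean difference of the heat shock list was -0.18 in high-share and 0.026 in low-share libraries. Of 31 cell cycle and DNA replication genes 18 were positive, with a median of 0.011, and of 13 mitochondrially encoded genes 8, with a median of 0.032. These 4 lists had 0 members at an unadjusted limma p under 0.05. Among 19 immediate early genes 2 lay under that level, both higher in high-fat libraries. Dusp1, a phosphatase induced within minutes of stimulation, had 3.49, 5.94 and 7.83 RPKM in high-fat libraries, against 2.92, 3.51 and 5.44 RPKM in normal-fat libraries (lowest, median and highest of 6), with a difference of 0.45 ± 0.16 (SE). That count was 0 without the 4 low-share libraries and under upper-quartile scaling, and 1 without NF replicate 1 or 2, NF_Sugar replicate 2 or 3, HF replicate 1 or 3, or HF_Sugar replicate 1 or 2.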
